A study of Mus musculus with 19 samples.

Results

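The genes described are 10 mouse genes whose products hydroxylate, escort or cross-link collagen: the prolyl 4-hydroxylase alpha subunits P4ha1 and P4ha2, the lysyl hydroxylases Plod1, Plod2 and Plod3, the collagen chaperone Serpinh1, and the lysyl oxidases Lox, Loxl1, Loxl2 and Loxl3. They were chosen by function, by matching Ensembl identifiers to mouse symbols, and make up 10 of the 55487 genes counted. RNASeq was measured in hepatic stellate cells (HSCs), the vitamin A storing pericytes of the liver. They were sorted by ultraviolet fluorescence from the livers of male Balb/c mice, healthy and 23 to 24 weeks old. Freshly isolated cells (0 h) and cells cultured for 24 h have 2 samples, and cells cultured for 3, 6, 12, 18 or 96 h have 3 samples per timepoint. All cultures stood on collagen-coated plates in medium with 10% serum, received no other treatment and had their medium changed after 3 h and 24 h. Plated HSCs are a model of activation outside the liver tissue, in which transcripts of other liver cells were still counted. Only the 0 h samples were never plated. The labels number the samples M1, M2 and M3, called repeats 1, 2 and 3 here, without saying what M stands for. They give 2 isolation dates, of which repeats 1 and 3 share one and repeat 2 has the other. The methods of the study, and not the labels, describe 3 independent repeats per timepoint, each standing for 2 technical repeats. Repeat 1 has no sample at 0 h and repeat 3 has none at 24 h.

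Collagen chains are modified in the endoplasmic reticulum before they fold. Prolyl 4-hydroxylases join a catalytic alpha subunit, such as P4ha1 or P4ha2, to the partner subunit P4hb and make the hydroxyproline that keeps the triple helix stable. Lysyl hydroxylases modify lysines of the helix and of the telopeptides, and Plod2 is known for the telopeptide lysines that give stable cross-links. Serpinh1 (HSP47) binds the folded helix until it leaves the endoplasmic reticulum. Outside the cell, lysyl oxidases convert lysines to aldehydes that cross-link neighbouring molecules, a step known for stiffening the fibrotic liver. P4ha1, P4ha2, Plod2 and Lox are well known targets of hypoxia-inducible factor.

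To show regulatory sequence beside the genes whose levels moved most often, the 250 bases upstream of the transcription start are printed for 3 members. P4ha1, Plod1 and Serpinh1 are those that were called in at least 3 comparisons and had a RefSeq promoter window. Windows of 5 of the 10 members were searched (also P4ha2 and Plod3) and come from RefSeq on GRCm38.p6. The other members, among them Lox, were not searched, and whether RefSeq holds a window for them is not given here. The sequences run 5′ to 3′ on the strand of the gene. Capitals mark matches, on either strand, to ACGTG (the core of the hypoxia response element) or GGGCGG (the SP1 site).
P4ha1, chr10:59323046-59323295, plus strand: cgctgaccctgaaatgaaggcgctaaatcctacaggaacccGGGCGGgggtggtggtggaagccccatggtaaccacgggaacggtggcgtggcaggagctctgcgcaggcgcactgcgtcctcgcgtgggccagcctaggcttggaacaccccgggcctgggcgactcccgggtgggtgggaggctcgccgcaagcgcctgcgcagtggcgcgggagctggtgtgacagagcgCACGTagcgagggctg
Plod1, chr4:147936777-147937026, minus strand: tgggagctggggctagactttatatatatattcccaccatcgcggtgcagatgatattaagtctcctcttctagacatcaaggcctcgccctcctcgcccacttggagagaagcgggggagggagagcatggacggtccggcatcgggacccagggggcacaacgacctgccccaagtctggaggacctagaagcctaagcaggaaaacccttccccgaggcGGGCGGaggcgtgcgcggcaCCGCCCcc
Serpinh1, chr7:99353240-99353489, minus strand: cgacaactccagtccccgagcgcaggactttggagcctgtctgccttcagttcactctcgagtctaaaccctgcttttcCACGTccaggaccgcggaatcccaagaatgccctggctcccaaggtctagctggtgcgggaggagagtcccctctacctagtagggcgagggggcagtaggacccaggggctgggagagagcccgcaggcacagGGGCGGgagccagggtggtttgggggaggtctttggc
ACGTG was matched in P4ha1, P4ha2, Plod3 and Serpinh1 and not in Plod1, against 16.7% of 32536 windows of the same length. GGGCGG was matched in P4ha1, P4ha2, Plod1 and Serpinh1, against 33% of windows. CCAAT, held by 33.8% of windows, was matched in Plod3. The heat shock element core GAANNTTC (6.72% of windows), the AP-1 site TGANTCA (6.73%) and the TEAD site CATTCC (12.6%) had no match in the 5 windows. The 5 windows held between 55.6% (Plod3) and 70% (P4ha2) of G and C, against a median of 52.4% over all windows. Shares of windows with a match are not adjusted for this, and enrichment was not tested. A match describes letters and not binding.

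Samples held between 2073171 and 7690892 counts. The limit of detection was set at 3 counts, which equals between 0.39 and 1.45 CPM. Such floors cover counting error only, since the reads carry no molecular identifiers. Levels below are CPM, counts relative to the TMM-scaled library size, and follow the order of the repeat number. Libraries were made from the 3′ ends of mRNAs, so that CPM is not divided by gene length. Shares and ratios of counts between genes are given to follow their change over time and do not rank expression. Single zeros also occurred among well counted genes: of 6722 genes that averaged 20 CPM or more, between 0.937% and 7.5% were at 0 counts in any one library. All 10 members passed the filter on low counts, and 15138 genes were tested with edgeR. Genes past an adjusted p of 0.1 whose fold change also exceeded 2 were called. Differences below are log2 fold changes of the later over the earlier timepoint. In bulk samples, fewer cells of a type and less RNA per cell cannot be told apart.

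Over the 7 timepoints, 6 of the 10 members varied (edgeR, adjusted p under 0.1), against 27.4% of all genes tested. These were P4ha1 (adjusted p = 0.000372), Loxl2 (0.000915), Serpinh1 (0.00231), Plod1 (0.00887), Lox (0.0190) and Plod3 (0.0199). Plod2 (0.156), Loxl3 (0.404), Loxl1 (0.672) and P4ha2 (0.731) did not pass. The members had different courses. Loxl2 rose by 3 h, P4ha1 and Plod1 fell by 6 h, Serpinh1 and Plod2 had their highest mean at 12 h, and Lox and Plod3 joined Loxl2 above freshly isolated HSCs at 96 h. Across the 19 samples, Pearson's r between log2 CPM of pairs of members ranged from -0.68 to 0.69 with a median of 0.24 over 45 pairs. This is a description, since the samples share timepoints and the genes share libraries.

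**Figure D1:**
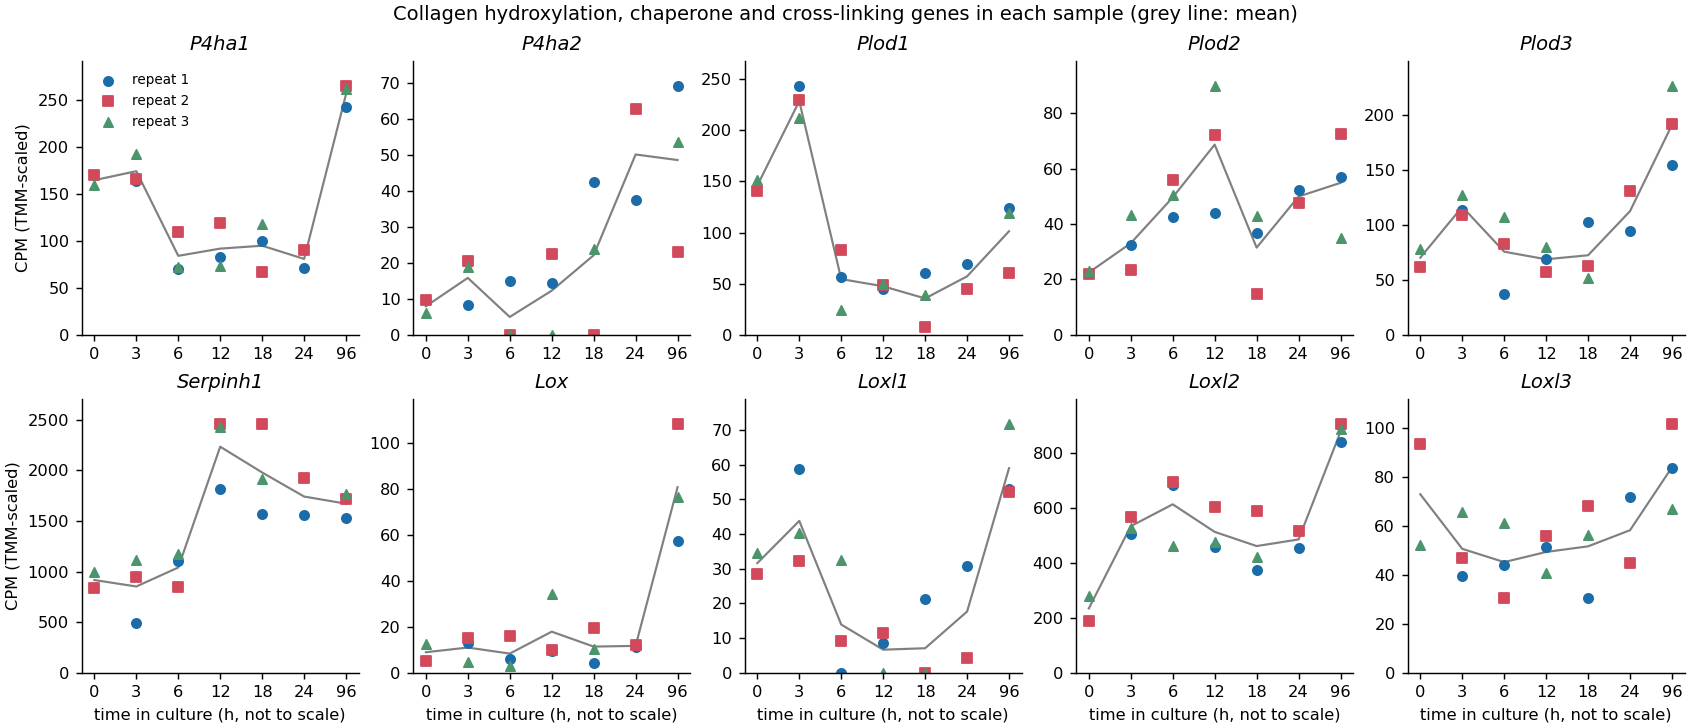
Level of each of the 10 genes (TMM-scaled CPM, linear axis from 0, a scale of its own per gene) in each of the 19 samples against time in culture (h, not to scale), with symbols for the 3 repeats and a grey line through the means. Serpinh1 rises between 6 and 12 h, Plod1 and P4ha1 drop between 3 and 6 h, and Lox, Plod3 and Loxl2 are highest at 96 h.

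Relative to freshly isolated HSCs, 1 member was called higher at 3 h (4.19% of all genes were) and 0 lower (1.39%). At 6 h, 1 was higher (6.98% of all genes) and 0 lower (4.35%). The 12 h samples had 3 higher (8.60%) and 1 lower (9.10%), and the 18 h samples 1 higher (7.64%) and 1 lower (8.21%). At 24 h, 1 was higher (5.65%) and 1 lower (3.86%). At 96 h, 3 were higher (5.83%) and 0 lower (5.03%). These 6 comparisons share the same 2 samples at 0 h. The median log2 fold change of the members was 0.51 for 3 h, -0.39 for 6 h, 0.30 for 12 h, 0.20 for 18 h, 0.54 for 24 h and 1.09 for 96 h. That of all genes tested was 0 up to 24 h and 0.07 at 96 h. All 3 samples at 96 h lay above both samples at 0 h for 8 of the 10 members, compared with 22.2% of all genes.

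Between timepoints in culture, 0 members were higher (2.50% of all genes) and 2 lower (1.99%) at 6 h against 3 h. At 12 h against 6 h, 1 was higher (0.416%) and 0 lower (1.42%). No member was called at 18 h against 12 h (0.0727% of genes higher and 0.152% lower) or at 24 h against 18 h (0.0132% and 0.0264%), with edgeR or with DESeq2. At an unadjusted p of 0.05, 1 member would pass in the first of these and 0 in the second. At 96 h, 1 member was higher (1.37%) and 0 lower (1.35%) than at 24 h, and 2 were higher (6.96%) and 0 lower (6.57%) than at 12 h.

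**Figure D2:**
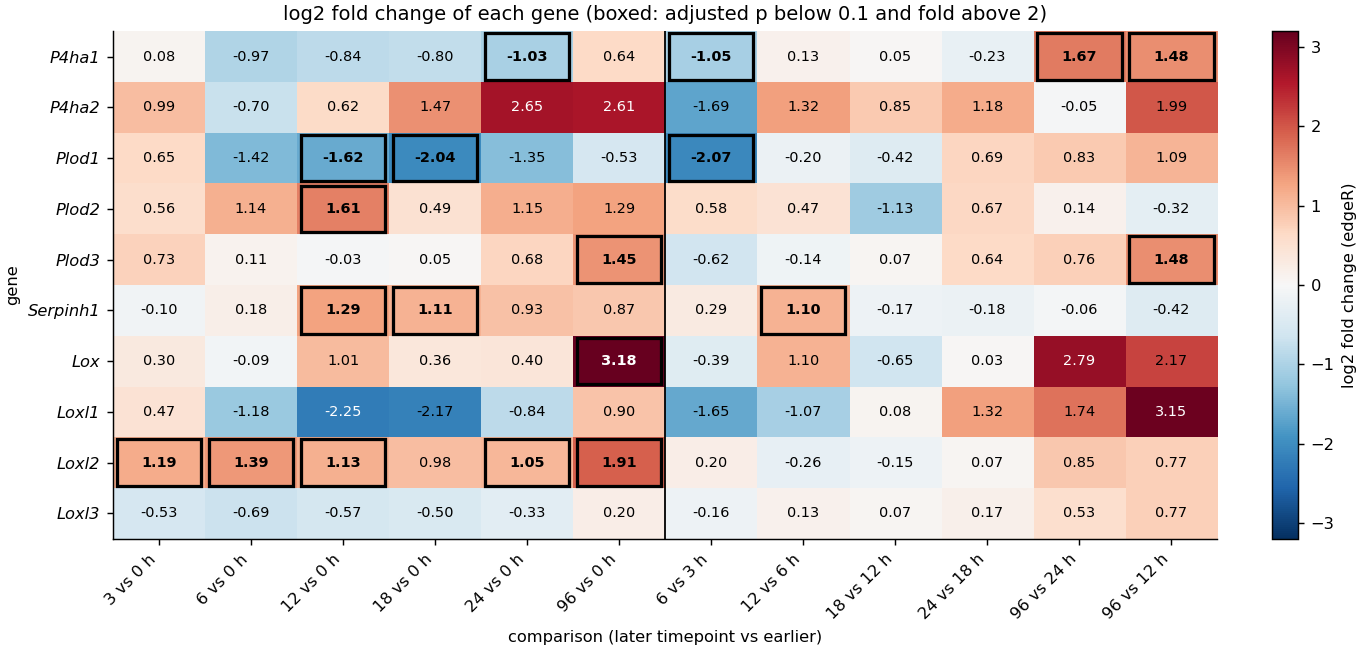
Log2 fold change (edgeR) of each gene in 12 comparisons, the 6 left of the line against 0 h and the 6 right of it within culture. Colour and printed value give the size, and a box marks a called gene (adjusted p under 0.1, fold over 2): Loxl2 is boxed in 5 of the 6 comparisons against 0 h, and P4ha1 and Plod1 are boxed lower at 6 h against 3 h.

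P4ha1 (chromosome 10, 59323296 to 59373304, plus strand), the catalytic subunit of the main prolyl 4-hydroxylase, fell early in culture and rose by 96 h. It stood at 170 and 159 CPM at 0 h, and at 164, 166 and 192 CPM at 3 h. The level was 70.3, 110 and 71.8 CPM at 6 h, 82.5, 119 and 73.4 CPM at 12 h, 99.7, 67.0 and 117 CPM at 18 h, and 71.2 and 90.0 CPM at 24 h. At 96 h it reached 242, 264 and 261 CPM. All samples from 6 to 24 h lay below all samples at 0 h and 3 h, and all at 96 h lay above every earlier sample. From 3 h to 6 h P4ha1 fell by 1.05 (SE 0.25, adjusted p = 0.0272), with within-repeat differences of -1.22, -0.60 and -1.41. This call was lost without the 6 h sample of repeat 1 (-0.94, adjusted p = 0.106) or repeat 3 (-0.95, adjusted p = 0.113), and library-size scaling (-0.95) put it below the limit on fold change.

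Against 0 h, P4ha1 was lower at 24 h (-1.03, SE 0.31, adjusted p = 0.0529). That call was lost with the repeat number as a block (-0.98, adjusted p = 0.0987), with library-size scaling (-0.75, 0.159), with no filter on low counts (0.107) and without any one of the 4 samples compared. The adjusted p was then 0.146 (repeat 3 at 0 h), 0.220 (repeat 2 at 0 h), 0.358 (repeat 1 at 24 h) or 0.156 (repeat 2 at 24 h). The differences at 6 h (-0.97, adjusted p = 0.0350), 12 h (-0.84, 0.0520) and 18 h (-0.80, 0.0729) did not reach the limit on fold change. DESeq2 called all 3 (-1.2, -1.07 and -1.03, adjusted p = 0.000151, 0.000638 and 0.00114), and the 6 h difference was called with no filter on low counts (-1.02, 0.0689). Without the 6 h sample of repeat 2 the 6 h difference passed it (-1.25, adjusted p = 0.0131), and without the 12 h sample of repeat 2 the 12 h difference did (-1.10, 0.0220). Without the 12 h or 18 h sample of repeat 2, or either 24 h sample, the 6 h difference lay just past the limit (-1.01 at the farthest). P4ha1 rose from 24 h to 96 h by 1.67 (SE 0.29, adjusted p = 0.00531), higher in 2 of 2 repeats, and this was lost without the 24 h sample of repeat 1 (adjusted p = 0.107). It was higher at 96 h than at 12 h by 1.48 (SE 0.25, adjusted p = 0.000894), a call kept without each sample in turn, with 1.55, 1.15 and 1.83 in the 3 repeats. The difference between 96 h and 0 h (0.64, adjusted p = 0.203) was not called.

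P4ha2 (chromosome 11, 54100095 to 54131665, plus strand), the second alpha subunit, was low and uneven. It lay at 9.78 and 6.03 CPM at 0 h and between 8.29 and 20.4 CPM at 3 h. It was at 0 counts in 2 of 3 samples at 6 h and in 1 of 3 at 12 h and at 18 h. Both 24 h samples (37.5 and 62.6 CPM) and all 96 h samples (69.1, 22.9 and 53.6 CPM) were above both samples at 0 h. The differences of 2.65 (SE 2.39) at 24 h and 2.61 (SE 2.28) at 96 h were not called. In fits of the 2 groups alone they were, with 2.62 (adjusted p = 0.0894) and 2.60 (adjusted p = 0.0643).

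P4ha1 made up 95.5% ± 1.3 (SD, n = 2) of the summed counts of both subunits at 0 h, 62.2% ± 4.6 (n = 2) after 24 h and 84.3% ± 7.2 (n = 3) after 96 h. The share of P4ha1 varied over the timepoints (permutation test over 19 samples, p = 0.0363, adjusted over 9 such ratios p = 0.0408). The unadjusted permutation p was over 0.05 with the repeat number as a block (0.0764), with log2 ratios (0.398) and without any one of 10 samples. These were the 0 h samples of repeat 2 (0.0535) and 3 (0.0565), the 3 h samples of repeat 1 (0.0530) and 3 (0.0526), the 6 h samples of repeat 2 and 3 (0.0545 each), the 18 h (0.0540) and 96 h (0.0537) samples of repeat 3, and the 24 h samples of repeat 1 (0.111) and 2 (0.206).

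The differences of the 3 lysyl hydroxylases at 3 h against 0 h were not called (Plod1 0.65, Plod2 0.56 and Plod3 0.73). The 3 genes moved apart later. Plod1 (chromosome 4, 147909753 to 147936767, minus strand), known for hydroxylating helical lysines, stood at 141 and 151 CPM at 0 h and at 244, 230 and 213 CPM at 3 h. It was at 56.1, 82.7 and 24.7 CPM at 6 h, at 44.5, 48.3 and 49.5 CPM at 12 h and at 60.2, 7.90 and 38.5 CPM at 18 h. Levels were 69.7 and 44.6 CPM at 24 h and 124, 60.4 and 119 CPM at 96 h. Every 3 h sample lay above both 0 h samples, and every sample from 6 h on lay below both. Plod1 fell from 3 h to 6 h by 2.07 (SE 0.55, adjusted p = 0.0466), lower in 3 of 3 repeats (-2.11, -1.47 and -3.09). This call was lost without the 3 h sample of repeat 1 (adjusted p = 0.120) or 2 (0.106), or the 6 h sample of repeat 1 (0.124) or 3 (0.174). Against 0 h it was lower at 12 h (-1.62, SE 0.59, adjusted p = 0.0804) and at 18 h (-2.04, SE 0.59, adjusted p = 0.0310). The 12 h call was lost without any sample at 0 h (repeat 3, 0.223; repeat 2, 0.196), any at 12 h (0.156 to 0.160) or any at 3 h (0.10 in each case). The 18 h call was lost without the 0 h sample of repeat 3 (0.108) and when those 2 groups were fitted alone (0.172). The difference of -1.42 at 6 h was not called, but was called without the 6 h sample (-1.90, adjusted p = 0.0937) or the 18 h sample (-1.46, 0.0393) of repeat 2, and with DESeq2 (-1.65, 0.0411). At 24 h the difference of -1.35 was called in the fit of the 2 groups alone (-1.37, 0.0889). Plod1 at 96 h against 12 h (1.09) was likewise called only without that 18 h sample (1.12, adjusted p = 0.0759) or in the fit of the 2 groups (1.09, adjusted p = 0.0620).

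Plod2 (chromosome 9, 92542223 to 92608428, plus strand), the telopeptide lysyl hydroxylase, lay above 0 h at 6 h and 12 h, where Plod1 lay below it. It stood at 21.8 and 23.1 CPM at 0 h, at 32.5, 23.5 and 43.1 CPM at 3 h, at 42.4, 55.9 and 50.4 CPM at 6 h and at 44.0, 72.1 and 89.8 CPM at 12 h. Later levels were 36.8, 14.6 and 43.0 CPM at 18 h, 52.4 and 47.4 CPM at 24 h and 57.1, 72.4 and 35.0 CPM at 96 h. All cultured samples except the 18 h sample of repeat 2 lay above both samples at 0 h. The rise by 12 h was 1.61 (SE 0.51, adjusted p = 0.0469), with 1.71 and 1.94 in repeats 2 and 3. It was lost without the 0 h sample of repeat 3 (adjusted p = 0.194) or 2 (0.221), without the 12 h sample of repeat 3 (0.138) and with no filter on low counts (0.135). The difference of 1.29 at 96 h was not called. It was with library-size scaling (1.44, adjusted p = 0.0990), with DESeq2 (1.15, 0.0795) and without the 18 h sample of repeat 2 (1.27, 0.0862).

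Plod3 (chromosome 5, 136987019 to 136996648, plus strand), which also transfers glucose to galactosylated hydroxylysine, was highest at 96 h. Its level was 61.9 and 78.3 CPM at 0 h, 113, 109 and 128 CPM at 3 h and 36.8, 82.3 and 108 CPM at 6 h. It was between 51.4 and 131 CPM in the samples from 12 to 24 h, and 155, 192 and 226 CPM at 96 h. The 96 h samples lay above every other sample. Plod3 was higher at 96 h than at 0 h by 1.45 (SE 0.40, adjusted p = 0.0332) and than at 12 h by 1.48 (SE 0.35, adjusted p = 0.0107). The first call was lost without the 0 h sample of repeat 3 (0.115) or 2 (0.259) or the 96 h sample of repeat 3 (0.102). The second was kept without each sample in turn, with 1.16, 1.73 and 1.5 in repeats 1, 2 and 3. Exons of Plod3 overlap those of Znhit1 on the opposite strand over 529 bases. Whether counting used strand is not given in the sources used here, so that reads of the pair may not be separated (9536 counts for Plod3 and 1085 for Znhit1 over all samples).

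Plod1 made up 61.3% ± 2.0 (SD, n = 2) of the summed Plod counts at 0 h, 60.5% ± 4.4 (n = 3) by 3 h, 30.8% ± 15.1 (n = 3) by 6 h and 26% ± 3.0 (n = 3) by 12 h. For Plod2 the share was 9.43% ± 0.40 (SD, n = 2) in freshly isolated HSCs, 8.70% ± 2.4 (n = 3) by 3 h, 28.1% ± 3.1 (n = 3) by 6 h, 36.5% ± 7.4 (n = 3) by 12 h and 16.2% ± 6.6 (n = 3) by 96 h. That of Plod3 went from 29.3% ± 2.4 (SD, n = 2) to 54.9% ± 7.7 (n = 3) over the whole course. The shares of Plod1 and Plod2 did not overlap between the samples of 0 and 3 h and those of 6 and 12 h. Both varied over the timepoints (permutation test over 19 samples, adjusted p = 0.00466 for Plod1 and 0.00261 for Plod2) and did so without each sample in turn. For Plod3 the p was 0.0828, unadjusted and adjusted alike. Without the 6 h sample of repeat 3 the unadjusted p was 0.0299, and without the 18 h sample of repeat 3 it was 0.0296. Shares within a sample do not depend on the scaling between libraries.

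**Figure D3:**
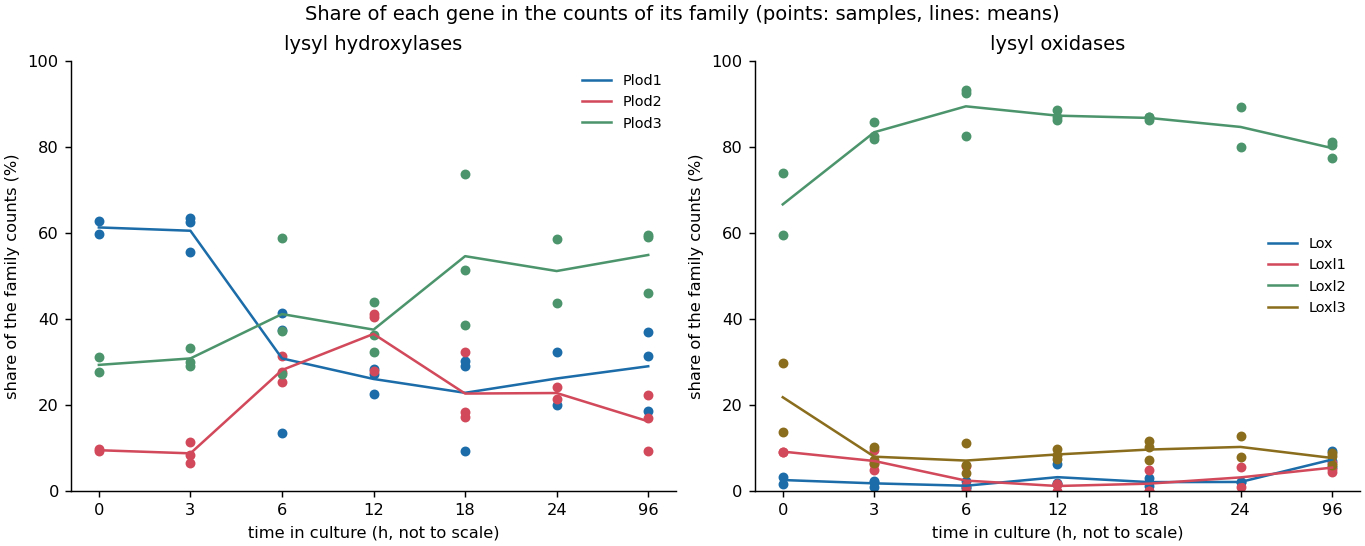
Share (%) of Plod1, Plod2 and Plod3 (left) and of Lox, Loxl1, Loxl2 and Loxl3 (right) in the summed counts of the genes shown, per sample (points) and as the mean (lines), against time in culture (h, not to scale). Loxl4 is not included. Plod1 drops from 60.5% at 3 h to 30.8% at 6 h while Plod2 climbs to 36.5% at 12 h, and Loxl2 goes from 66.7% at 0 h to 89.5% at 6 h.

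Serpinh1 (chromosome 7, 99345376 to 99353239, minus strand), the collagen-binding chaperone of the endoplasmic reticulum, stepped up between 6 and 12 h. Its level was 835 and 998 CPM at 0 h, 489, 950 and 1119 CPM at 3 h and 1101, 850 and 1170 CPM at 6 h. It was 1820, 2457 and 2428 CPM at 12 h, 1568, 2460 and 1912 CPM at 18 h, 1562 and 1922 CPM at 24 h and 1532, 1717 and 1765 CPM at 96 h. Every sample from 12 h on lay above every earlier sample. Serpinh1 was higher at 12 h than at 0 h by 1.29 (SE 0.29, adjusted p = 0.00626), a call kept without each sample in turn, with 1.56 and 1.28 in repeats 2 and 3. It was higher at 12 h than at 6 h by 1.1 (SE 0.25, adjusted p = 0.0409), with 0.72, 1.53 and 1.05 in the 3 repeats. The second call was lost without the 6 h sample of repeat 2 (adjusted p = 0.115) or the 12 h sample of repeat 2 (0.119) or 3 (0.141). At 18 h it was higher by 1.11 (SE 0.29, adjusted p = 0.0174). This did not reach the limit on fold change without the 18 h sample (0.88, 0.0829) or the 0 h sample (0.92, 0.174) of repeat 2, or with DESeq2 (0.88). The differences at 24 h (0.93, adjusted p = 0.0872) and 96 h (0.87, adjusted p = 0.0766) passed the limit on p but not that on fold change. With the repeat number as a block, Serpinh1 was called at 24 h (1.14, adjusted p = 0.0171). Library-size scaling called it at 24 h (1.2, 0.0213) and at 96 h (1.01, 0.0373).

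Among the lysyl oxidases, Loxl2 (chromosome 14, 69609068 to 69695834, plus strand) was the earliest to be called. It stood at 187 and 281 CPM at 0 h, at 503, 568 and 528 CPM at 3 h, at 684, 694 and 460 CPM at 6 h and at 459, 604 and 475 CPM at 12 h. Levels were 373, 588 and 421 CPM at 18 h, 453 and 516 CPM at 24 h and 840, 905 and 885 CPM at 96 h. Every cultured sample lay above both samples at 0 h, and the 96 h samples lay above all others. The rise over 0 h was 1.19 at 3 h (SE 0.24, adjusted p = 0.00733) and 1.39 at 6 h (SE 0.24, adjusted p = 0.00124). It was 1.13 at 12 h (SE 0.24, adjusted p = 0.00385), 1.05 at 24 h (SE 0.26, adjusted p = 0.0157) and 1.91 at 96 h (SE 0.25, adjusted p = 8.22e-05). Within repeats 2 and 3, the 96 h rise was 2.27 and 1.66. The calls at 6 h and 96 h were kept without each sample in turn.

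Without the 0 h sample of repeat 2, the lowest of all, the Loxl2 differences at 3 h (0.96, adjusted p = 0.132), 12 h (0.87) and 24 h (0.76, adjusted p = 0.241) were no longer called. The 12 h call was also lost without the 12 h sample of repeat 2 (0.98) and with DESeq2 (0.91). The 24 h call was lost without the 24 h sample of repeat 2 (0.96, adjusted p = 0.119), with DESeq2 (0.84) and in the fit of the 2 groups alone (adjusted p = 0.107). At 18 h the difference was 0.98 (adjusted p = 0.0115), which passed the limit on fold change without the 0 h sample of repeat 3 (1.26), the 18 h sample of repeat 1 (1.11) or that of repeat 3 (1.04), and with library-size scaling (1.21). The step in Loxl2 from 24 h to 96 h (0.85, adjusted p = 0.0829) and that from 12 h to 96 h (0.77, adjusted p = 0.0223) did not reach the limit on fold change.

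Lox (chromosome 18, 52516067 to 52529867, minus strand), the founding lysyl oxidase, was low until 24 h. Between 0 h and 24 h its samples lay between 2.92 and 34.3 CPM, the highest of them at 12 h in repeat 3, and at 96 h they stood at 57.4, 108 and 76.5 CPM. The 96 h samples lay above all others. The difference between 96 h and 0 h was 3.18 (SE 1.0, adjusted p = 0.0630), with 4.26 and 2.57 in repeats 2 and 3. It was lost without the 0 h sample of repeat 2 (adjusted p = 0.373) or 3 (0.152), the 96 h sample of repeat 2 (0.156) or 3 (0.117), and with no filter on low counts (0.121). Within culture, the difference of 96 h against 12 h (2.17, SE 0.81, adjusted p = 0.105) was just outside the limit. It was inside without the 12 h sample of repeat 3 (3.06, adjusted p = 0.0612), the 6 h sample of repeat 2 (0.0875) or 3 (0.0844) or the 18 h sample of repeat 1 (0.0928) or 2 (0.0937), and with DESeq2 (2.25, 0.0132), library-size scaling (0.0921) or the fit of the 2 groups alone (0.0505). Against 24 h the difference was 2.79 (adjusted p = 0.217), and DESeq2 (2.86, 0.0109) and the fit of the 2 groups alone (2.77, 0.0315) called it. The variation of Lox over the timepoints was lost without the 96 h sample of repeat 2 (adjusted p = 0.129).

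Loxl1 (chromosome 9, 58287738 to 58313186, minus strand), which acts on elastic fibres, and Loxl3 (chromosome 6, 83034173 to 83052562, plus strand) had no call. Loxl1 was at 28.6 and 34.6 CPM at 0 h and at 58.7, 32.4 and 40.3 CPM at 3 h. It was at 0, 9.15 and 32.5 CPM at 6 h, 8.57, 11.4 and 0 CPM at 12 h, 21.2, 0 and 0 CPM at 18 h, 30.9 and 4.37 CPM at 24 h and 53.0, 52.2 and 71.8 CPM at 96 h. The samples at 12 h and 18 h lay below both samples at 0 h, and those at 96 h lay above both. Without the 18 h sample of repeat 1, both remaining 18 h samples were at 0 counts and Loxl1 was called lower (adjusted p = 0.0364). Loxl3 stood at 93.5 and 52.2 CPM at 0 h and between 30.4 and 102 CPM in culture, and the samples of each timepoint overlapped with those at 0 h. Exons of Loxl3 overlap those of Htra2 on the opposite strand over 535 bases (5296 and 18 counts over all samples). Plod2 shares 346 exonic bases with Gm38391 (4376 and 151 counts) and Loxl2 301 with Gm27177 (51172 and 132 counts).

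Loxl2 made up 66.7% ± 10.2 (SD, n = 2) of the summed counts of Lox, Loxl1, Loxl2 and Loxl3 at 0 h. It made up 89.5% ± 5.9 (n = 3) by 6 h and 79.8% ± 1.9 (n = 3) by 96 h. Loxl4, a lysyl oxidase outside the 10 members, is not in these sums. It averaged 6.03 CPM at 0 h (n = 2) and 128 CPM at 96 h (n = 3). The share of Loxl2 varied over the timepoints (permutation test over 19 samples, adjusted p = 0.00261). So did that of Lox (2.49% ± 1.2 at 0 h, n = 2, and 7.26% ± 1.9 at 96 h, n = 3, permutation test, adjusted p = 0.0236). The share of Loxl1 went from 9.11% ± 0.012 at 0 h (n = 2) to 1.1% ± 0.95 at 12 h (n = 3, permutation test, adjusted p = 0.0236), and that of Loxl3 from 21.8% ± 11.3 at 0 h (n = 2) to 7.62% ± 1.4 at 96 h (n = 3, permutation test, adjusted p = 0.0158). The result for Loxl3 rested on the 0 h sample of repeat 2 (unadjusted permutation p = 0.00878 with it and 0.319 without it) and was also lost without the 24 h sample of repeat 1 (0.0617) or 2 (0.0591). That for Lox (unadjusted p = 0.0162) was lost without the 96 h sample of repeat 2 (0.0553). For Loxl1, the log2 ratio to the other members did not pass (unadjusted permutation p = 0.168). These are shares of 3′ counts and not of protein.

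The summed counts of 3 fibrillar collagens, a part of the substrates, moved apart from those of the 10 members for part of the course. The summed level of Col1a1, Col1a2 and Col3a1, the main fibrillar collagen chains, was 2654 and 3203 CPM at 0 h, 244, 310 and 392 CPM at 12 h, 218, 272 and 331 CPM at 18 h, and 2502, 2027 and 2519 CPM at 96 h. Its mean was lowest at 18 h and next lowest at 12 h, and a 24 h sample (370 CPM) lay within the range of the 12 h samples. The 10 members together averaged 1671 CPM in freshly isolated HSCs, 3106 CPM after 12 h, 2764 CPM after 18 h and 3416 CPM after 96 h. Their ratio to the 3 collagens, taken within each sample, was 0.584 and 0.559 at 0 h, 11.2 and 8.32 in repeats 2 and 3 at 12 h and 10.7 in repeat 1. At 18 h the ratio was 10.7, 12.1 and 8.06, and at 96 h it was 1.28, 1.72 and 1.41. The ratios at 12 h and 18 h lay above those of all other samples, and those at 96 h lay between the samples of 0 h and 24 h.

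On the log2 scale the ratio of the members to collagens averaged -0.81 ± 0.04 (SD, n = 2) at 0 h, 0.37 ± 0.35 (n = 3) by 3 h, 0.89 ± 0.42 (n = 3) by 6 h and 3.32 ± 0.23 (n = 3) by 12 h. It was 3.34 ± 0.30 (n = 3) by 18 h, 2.59 ± 0.52 (n = 2) by 24 h and 0.55 ± 0.22 (n = 3) by 96 h. It varied over the timepoints (permutation test over 19 samples, p = 1e-05, the smallest the resamples can give, adjusted p = 9e-05), also without each sample in turn. Serpinh1 averaged 916 CPM against 756 CPM for the 9 other members at 0 h, 2235 against 874 CPM at 12 h and 1671 against 1748 CPM at 96 h. The ratio of Serpinh1 alone averaged 0.312 at 0 h and 7.18 at 12 h. The 9 other members averaged a log2 ratio of -1.95 at 0 h, 1.49 at 12 h and -0.42 at 96 h. Between 0 h and 12 h the summed level of those 9 went from 756 to 874 CPM, while that of the collagens went from 2929 to 316 CPM.

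**Figure D4:**
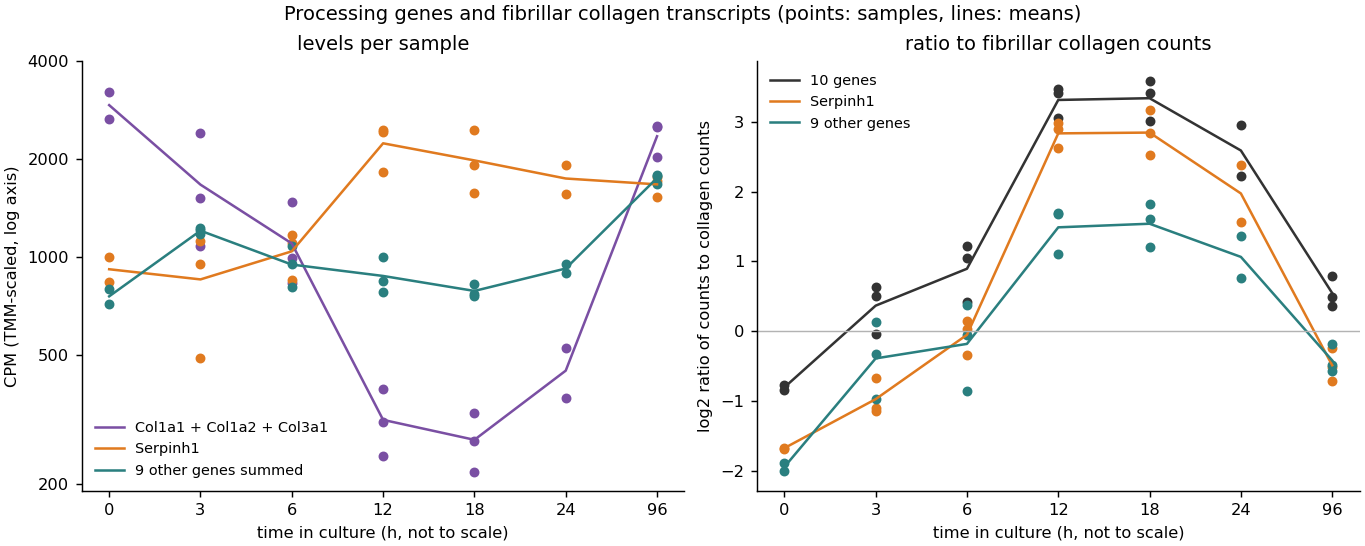
Left, TMM-scaled CPM (log axis) of the 3 fibrillar collagen genes summed, of Serpinh1 and of the 9 other processing genes summed, and right, the log2 ratio of processing gene counts to collagen counts, per sample (points) and as means (lines) against time in culture (h, not to scale). The collagen sum drops from a mean of 2929 CPM at 0 h to 274 CPM at 18 h and is 2349 CPM at 96 h, while the ratio of the 10 genes peaks at 12 and 18 h.

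Other genes of the pathway were taken from lists by function. Against 0 h, 6.98% of all genes tested were higher and 4.35% lower at 6 h, and 8.60% and 9.10% at 12 h. At 18 h these shares were 7.64% and 8.21%, and at 96 h they were 5.83% and 5.03%. Enrichment of the lists was not tested. Of the 8 partners of prolyl 4-hydroxylase and members of the prolyl 3-hydroxylase complex, 7 were tested. At 6 h 0 were higher and 3 lower (P3h3, Crtap and P3h4), at 12 h 0 and 2, and at 96 h 1 was higher and 1 lower. P4hb, the partner subunit, averaged 259 ± 47 CPM (SD, n = 2) at 0 h, 300 ± 38 CPM (n = 3) after 12 h and 758 ± 26 CPM (n = 3) after 96 h. It rose by 1.55 (SE 0.24, adjusted p = 0.000480) between 0 h and 96 h. P3h3, a prolyl 3-hydroxylase family protein, averaged 104 ± 23 CPM (SD, n = 2) in freshly isolated HSCs and 17.4 ± 6.8 CPM (n = 3) after 12 h (-2.57, SE 0.48, adjusted p = 0.00143). P4ha3, the third alpha subunit, was at 0 counts in every sample before 96 h except 1 at 6 h (0.365 CPM), and averaged 12.8 ± 7.0 CPM (n = 3) at 96 h.

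Of 11 collagen glycosyltransferases and foldases, 1 was higher and 1 lower at 12 h, and 4 were higher and 0 lower at 96 h (Hspa5, Sparc, Colgalt1 and Fkbp10). Sparc, a collagen-binding secreted protein, averaged 3271 ± 152 CPM (SD, n = 2) in freshly isolated HSCs, 1757 ± 88 CPM (n = 3) after 12 h and 7033 ± 418 CPM (n = 3) after 96 h, where it was above 0 h by 1.1 (SE 0.15, adjusted p = 0.000164). Pdia3, a disulfide isomerase that works with calreticulin, fell by 1.1 at 12 h (SE 0.23, adjusted p = 0.00426). Calreticulin, Calr, averaged 932 CPM at 0 h, 485 CPM at 12 h and 1332 CPM at 96 h. Both were higher at 96 h than at 12 h (Pdia3 1.2, adjusted p = 0.00137, and Calr 1.46, adjusted p = 0.000574). Of 8 procollagen export genes, 1 was higher at 6 h and at 12 h and 0 at 96 h. It was Mia2, a collagen export receptor, which averaged 81.0 CPM at 0 h, 214 CPM at 6 h (1.4, adjusted p = 0.0299) and 212 CPM at 12 h (1.38, adjusted p = 0.0231). Sec13 and Klhl12 were not called against 0 h.

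Of 8 propeptide removal genes 6 were tested. Pcolce, the enhancer of C-propeptide cleavage, was the 1 called, lower at 12 h and 18 h. It averaged 268 ± 51 CPM (SD, n = 2) in freshly isolated HSCs, 18.5 ± 0.99 CPM (n = 3) after 12 h (-3.85, SE 1.08, adjusted p = 0.0242), 6.58 ± 11 CPM (n = 3) after 18 h and 295 ± 55 CPM (n = 3) after 96 h. Adamts2 was not called against 0 h. Adamts3 was at 0 counts in all groups but 3 h. Of 4 other cross-linking genes 3 were tested. Pxdn, the peroxidase that cross-links type IV collagen, was lower at each of the 5 timepoints from 6 h on. It averaged 285 ± 26 CPM (n = 2) at 0 h and 36.7 ± 5.4 CPM (n = 3) at 12 h (-2.95, adjusted p = 0.000258). The transglutaminase Tgm2 was not called against 0 h and rose from 12 h to 96 h by 1.24 (adjusted p = 0.00338). Loxl4, a lysyl oxidase outside the 10 members, stood between 0 and 12.1 CPM at 0 h and between 87.6 and 151 CPM at 96 h, without a call (4.44, SE 2.24, adjusted p = 0.269).

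Of 13 collagen and elastin genes, 2 were higher and 9 lower at 12 h, 3 and 9 at 18 h, and 4 and 3 at 96 h. Their median log2 fold change was -3.35 at 12 h. Against 12 h, 6 were higher and 0 lower at 96 h. The type IV collagen chains Col4a1 and Col4a2 were above 0 h at 6 h, by 1.425 (adjusted p = 8.4e-05) and 1.34 (adjusted p = 0.0112). At 12 h Col4a1 was above 0 h by 1.68 (adjusted p = 1.05e-05). Col1a1 fell by 2.02 at 12 h (SE 0.36, adjusted p = 0.00104) and was above 0 h at 96 h by 2.21 (SE 0.40, adjusted p = 0.00150). Col3a1 was below 0 h both at 12 h (-3.48, adjusted p = 6.46e-06) and at 96 h (-2.06, adjusted p = 0.00104). Col1a2 was lower at 12 h (-3.35, adjusted p = 1.24e-05) and averaged 631 CPM at 0 h and 463 CPM at 96 h. Of 12 fibril regulators 11 were tested, of which 0 were higher and 6 lower at 12 h and 0 and 3 at 96 h. The small proteoglycan Dcn was lower at 12 h (-2.41, adjusted p = 1.36e-07) and at 96 h (-3.31, 4.44e-09). Lum, of the same family, was lower at 12 h (-4.19, 0.000133) and at 96 h (-3.23, 0.00150). Bgn was higher at 3 h by 1.2 (adjusted p = 0.00226) and lower at 12 h (-1.45, 7.96e-05).

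Of 14 hypoxia response genes 11 were tested, of which 5 were higher and 0 lower at 12 h and at 18 h (Slc2a1, Vegfa, Adm, Ero1l and Pgk1). At 6 h the list was mixed, with 4 higher (Slc2a1, Vegfa, Adm and Pgk1) and 2 lower (Egln1 and Ldha). The glucose transporter Slc2a1 averaged 11.4 ± 2.3 CPM (SD, n = 2) in freshly isolated HSCs and 181 ± 29 CPM (n = 3) after 12 h (4.0, SE 0.50, adjusted p = 3.64e-05). The glycolytic enzyme Pgk1 averaged 26.6 ± 4.9 CPM (n = 2) and 99.7 ± 11 CPM (n = 3) at these timepoints (1.90, SE 0.37, adjusted p = 0.00220). Ldha, lactate dehydrogenase A, fell at 6 h (-1.23, adjusted p = 0.00661) and rose at 96 h by 1.91 (adjusted p = 0.000347). Of the 4 members named above as hypoxia targets, which need not be all such members, Plod2 was called higher at 12 h. Lox (1.01), P4ha2 (0.62) and P4ha1 (-0.84) were not called. Of 11 collagen degradation genes, a list that also holds the Timp inhibitors of the proteases, 9 were tested. At 12 h 4 were higher (Mmp3, Ctsk, Mmp13 and Timp3) and 3 lower (Mrc2, Timp2 and Mmp14). At 96 h 5 were higher (Mmp3, Ctsk, Timp1, Mmp13 and Timp3) and 0 lower.

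For the 4 members with the most counts per library, the genes outside the members with the most similar course were sought by Pearson's r of log2 CPM across the 19 samples, which share libraries and depth. For Serpinh1 these were Lpp (0.92), Snx3 (0.91) and Rpl7a (0.89). Loxl2 was most like Hdlbp (0.89), Tpm1 (0.89) and Tram2 (0.88). P4ha1 was most like Ppm1m (0.94), Sparc (0.90) and Tsc22d1 (0.89), and Plod3 like Sidt2 (0.88), Atp5j2 (0.81) and Gm6560 (0.80).

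Markers of the cell types that a sort of liver cells can hold moved with time as well. All 12 HSC markers had counts at 0 h. Their summed level was 16260 to 20260 CPM at 0 h, 2653 to 2914 CPM at 12 h and 1106 to 1275 CPM at 96 h, with all 12 called lower at 12 h and Ngfr at 0 from 18 h on. The 10 hepatocyte markers summed to 4149 to 8442 CPM at 0 h, 523 to 1530 CPM at 3 h and 41.8 to 120 CPM at 96 h, with 8 of 10 called lower at 6 h. The 9 endothelial markers summed to 705 to 1045 CPM at 0 h, 908 to 2895 CPM at 3 h and 8.76 to 214 CPM at 96 h. For 10 markers of Kupffer cells and leukocytes the range was 310 to 373 CPM at 0 h and 11.2 to 22.9 CPM at 96 h, where 9 of 10 were at 0. The 10 portal fibroblast and mesothelium markers summed to 210 to 342 CPM at 0 h and 0 to 7.75 CPM at 96 h, with Msln, Upk3b, Upk1b and Pi16 at 0 in all samples. The 6 smooth muscle markers summed to 284 to 351 CPM at 0 h, 188 to 242 CPM at 12 h, 118 to 148 CPM at 18 h and 302 to 446 CPM at 96 h, where 2 of 6 (Lmod1 and Des) were called higher than at 12 h. The 5 cholangiocyte markers summed to at most 19.1 CPM. The part of these shifts in the differences of the members was not tested.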

How the data were processed

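QuantSeq 3′ mRNA libraries of 19 HSC samples were analysed. The authors deposited raw counts per gene, whole numbers without normalization, from reads mapped with STAR and assembled with StringTie on mm10 according to the submitters' processing notes; the counting tool, annotation release and strand setting are not given in the sources used here. None of the columns was left out (0 not used). Groups and repeat numbers (M1 to M3) came from the sample labels, symbols and coordinates from GENCODE on GRCm38. Totals of 2073171 to 7690892 counts limit low genes such as P4ha2 and Loxl1.

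Counts were scaled by TMM, filtered with filterByExpr (15138 of 55487 genes left) and tested in one quasi-likelihood fit with edgeR 4.0.16 (limma 3.58.1, R 4.3.3), timepoint being the single factor, with Benjamini-Hochberg adjustment. Calls needed a fold above 2 at an adjusted p under 0.1, and permutation tests an adjusted p under 0.05. The biological coefficient of variation was 1.06. Log2 CPM used a prior count of 2. Shares within families and the ratio to collagens were compared by permutation of the timepoints (100000 resamples, F statistic, one-sided in F, adjusted over 9 tests). Ratios were tabulated with Python 3.11.15 (numpy 2.4.6, pandas 2.3.3) and drawn with matplotlib 3.10.9. Alternatives were scaling by library size, DESeq2 1.42.0, no filter, the repeat number as a block, fits of the 2 groups alone, an adjusted p below 0.05 with no limit on fold, and leaving out each sample. P-values measure the spread between numbered repeats, which the labels do not tie to separate animals.

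The members, gene lists and tests were chosen with earlier results of these data known. All 10 members are named, with the up to 3 genes of each list with the smallest adjusted p over the timepoints and 3 genes most like each of the 4 members with the most counts. Genes on which a count turns (Crtap, P3h4, Hspa5, Colgalt1, Fkbp10, Vegfa, Adm, Ero1l, Egln1, Mmp3, Mmp14, Mrc2, Timp1, Timp3, Col4a1, Col4a2) were named after their values were seen. The repeat number was used as a block because each number carries a single isolation date in the labels, although 2 numbers share a date; the mean residual correlation was 0.014 in 51 pairs of one number and -0.007 in 103 other pairs. In simulated data with 200 genes changed 4-fold at 12 h, 82 were called with the right sign and 6 unchanged genes were called among 14552. Only the edgeR fit was tested on simulated counts of the same depths. The permutation test was tried on random numbers without counts, and the alternatives were not tested on simulated data.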

Additional observations from a re-analysis of the deposited data

How the results depend on the processing

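The number of members called moved by over 1.5 times in 12 cases. At 6 h against 0 h it was 3 with DESeq2, 2 with no filter and 2 at an adjusted p below 0.05 without a limit on fold, in place of 1. At 18 h it was 1 in the fit of the 2 groups alone in place of 2, and at 24 h it was 1 with DESeq2, with no filter and at the adjusted p below 0.05 in place of 2. At 96 h scaling by library size gave 5 in place of 3, and at 6 h against 3 h it gave 1 in place of 2. At 96 h against 24 h DESeq2 and the fit of the 2 groups gave 2 in place of 1, and at 96 h against 12 h the latter gave 4 in place of 2. Scaling by library size also moved the median of all genes to 0.24 at 24 h and 0.22 at 96 h (TMM, 0.00 and 0.07). Leaving out one sample gave 0 to 1 calls at 3 h, 1 to 3 at 6 h, 1 to 4 at 12 h, 1 to 4 at 18 h, 0 to 2 at 24 h and 1 to 4 at 96 h against 0 h. Within culture it gave 0 to 2 (6 h against 3 h), 0 to 1 (12 h against 6 h), 0 to 0 (18 h against 12 h and 24 h against 18 h), 0 to 1 (96 h against 24 h) and 2 to 4 (96 h against 12 h), and 5 to 6 members varied over the timepoints. The unadjusted permutation p of the shares ranged from 0.00947 to 0.206 for P4ha1, 0.00072 to 0.00701 for Plod1, 0.00033 to 0.00326 for Plod2, 0.0296 to 0.144 for Plod3, 0.00508 to 0.0553 for Lox, 0.0061 to 0.0454 for Loxl1, 4e-05 to 0.0195 for Loxl2 and 0.00406 to 0.319 for Loxl3, and the ratio to collagens stayed at 1e-05. With log2 ratios the share of P4ha1 had an unadjusted p of 0.398 and that of Loxl1 0.168. With the repeat number as a replicate block, the share of P4ha1 had an unadjusted p of 0.0764, P4ha1 at 24 h against 0 h was no longer called and Serpinh1 at 24 h was; the block changed no other call of a named fold change (43 of 45 the same). No direction was reversed. The cause of these shifts was not tested. The 2 samples at 0 h and the depth of 2073171 counts in one of them limit the comparisons against 0 h.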
